A study of Mus musculus with 6 samples.

Results

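The CCT chaperonin, also called TRiC, is assembled from 8 different subunits encoded by Tcp1, Cct2, Cct3, Cct4, Cct5, Cct6a, Cct7 and Cct8. Transcripts of these 8 genes, found by symbol among 54532 genes of an FPKM table (fragments per kilobase of gene length, scaled to library size), were compared in mouse hearts. Heart tissue was taken at an age of 15 days. The 3 control mice were Nat10flox/flox (flox) and the 3 others Nat10-CKO (CKO), described as a deletion of Nat10 specific to cardiomyocytes. The sources used here give neither the driver of the deletion, nor the exons it removes, nor the strain. The series asks what NAT10, an RNA acetyltransferase that also takes part in ribosome production, does in the growing heart.

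CCT is a double ring in which every subunit has its own fixed place, once in each ring, so the finished complex needs the subunits in equal number. It closes around unfolded proteins in the cytosol and opens again by the use of ATP. Actin and tubulin depend on it to reach their folded state, and so do many proteins with WD40 repeats. Heart muscle is rich in actin, the thin filament protein of the sarcomere.

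Reads recovered from the FPKM came to between 15048038 and 16280061 per heart, and 12469 genes with a mean of at least 1 FPKM were tested. Nat10 itself was at 3.87, 3.78 and 4.57 FPKM in flox hearts and at 3.69, 3.75 and 4.18 FPKM in CKO hearts, so the groups overlapped (log2 change −0.06 ± 0.12, SE, n = 3 per group, limma adjusted p = 0.768). A count over the whole gene in heart tissue need not show a deletion of some exons in one cell type, and CKO is used below as the label of the library. The labelled tissue fitted its markers, with cardiomyocyte genes summing to between 14522 and 25439 FPKM and skeletal muscle markers to at most 0.338 FPKM, 3 of 6 of them at 0 in every heart.

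All 8 CCT subunits were expressed well above the filter, and for each of the 8 the lowest CKO heart lay above the highest flox heart. Among all genes tested, 19.7% had CKO hearts above flox hearts without overlap, and 19.9% had them below. The excess was moderate, with ratios of mean FPKM from 1.31 for Tcp1 to 1.75 for Cct5, and it varied more between CKO hearts than between flox hearts. Cct5 alone passed the limma threshold of an adjusted p under 0.05, 1 of 8 against 6.93% of all genes called higher and 7.19% called lower, so the calls do not set the subunits apart from the background. The median log2 change of the 8 on the scale of FPKM + 1 was 0.60, beside a median of −0.00132 for all genes tested. Of the tested genes, 9.25% had a log2 change above that median of the subunits. In bulk tissue, more transcript in the same cells and more of the cells that express a gene cannot be told apart.

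**Figure D1:**
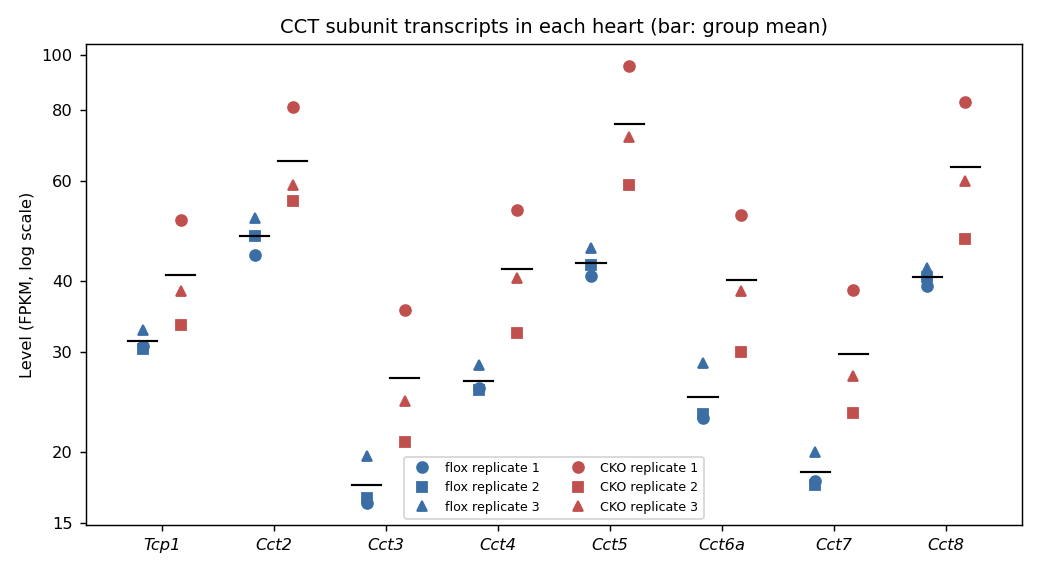
FPKM (log axis) of the 8 CCT subunit genes in each of the 6 hearts, blue for flox and red for CKO, with the replicate number as symbol and a bar at each group mean. CKO replicate 1 is the highest heart for every subunit, CKO replicate 2 is the lowest CKO heart for every subunit, and the flox hearts lie close together.

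The subunits Cct5, Cct4 and Cct2 are known from yeast as those on the side of the ring that binds and uses ATP most strongly. Cct5 (epsilon, ENSMUSG00000022234, chromosome 15, 31590800 to 31601804, minus strand, GRCm38) is the subunit in which a human mutation causes a sensory neuropathy. It stood at 40.9, 42.8 and 45.7 FPKM in flox replicates 1, 2 and 3 and at 95.8, 59.0 and 71.8 FPKM in CKO replicates 1, 2 and 3. All CKO hearts lay above all flox hearts, and the gap between the groups, 13.3 FPKM, was the widest of the 8. Cct5 rose from 43.1 ± 2.40 to 75.5 ± 18.7 FPKM (SD, n = 3), a log2 change of 0.77 ± 0.19 (SE, 95% interval 0.33 to 1.204, limma adjusted p = 0.0359; exact two-sided permutation p = 0.1, the smallest that 3 hearts against 3 can give). The call held without CKO replicate 1 (adjusted p = 0.0354), the heart with the highest level. It was lost without flox replicate 1, flox replicate 2, flox replicate 3 or CKO replicate 3, where its adjusted p rose to 0.138 at most.

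Cct4 (delta, ENSMUSG00000007739, chromosome 11, 22990519 to 23003780, plus strand) takes part in binding actin, and a rat with a mutant form has a sensory neuropathy. Its level was 25.9, 25.7 and 28.5 FPKM in flox hearts and 53.3, 32.3 and 40.6 FPKM in CKO hearts. No CKO heart reached down to the flox range, and CKO replicate 1 was at 1.998 times the flox mean. The log2 change of 0.61 ± 0.19 (95% interval 0.17 to 1.05) missed the threshold (limma adjusted p = 0.0687).

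Cct2 (beta, ENSMUSG00000034024, chromosome 10, 117051001 to 117063814, minus strand) was the highest subunit of the flox hearts on this scale. It was at 44.5, 48.0 and 51.6 FPKM in flox hearts and at 80.9, 55.3 and 59.1 FPKM in CKO hearts. The groups were 3.68 FPKM apart at their nearest, and CKO replicates 2 and 3 lay close to each other. Its log2 change was 0.41 ± 0.17 (95% interval 0.01 to 0.81, limma adjusted p = 0.145).

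Tcp1 (alpha, ENSMUSG00000068039, chromosome 17, 12915701 to 12925067, plus strand) is the founding member, after which the complex is named. It had the smallest difference, at 30.7, 30.3 and 32.9 FPKM in flox hearts against 51.2, 33.5 and 38.5 FPKM in CKO hearts. Only 0.661 FPKM separated the highest flox heart from the lowest CKO heart. The log2 change was 0.36 ± 0.17, and its 95% interval of −0.04 to 0.76 included 0 (limma adjusted p = 0.192).

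The other 4 subunits had changes of nearly one size, from 0.57 to 0.64 on the log2 scale. Cct7 (eta, ENSMUSG00000030007, chromosome 6, 85451514 to 85468475, plus strand) was at 17.7, 17.5 and 20.01 FPKM in flox hearts and at 38.6, 23.5 and 27.2 FPKM in CKO hearts, a log2 change of 0.64 ± 0.19 (limma adjusted p = 0.0635). Cct6a (zeta, ENSMUSG00000029447, chromosome 5, 129786998 to 129846371, plus strand) was at 23.0, 23.3 and 28.7 FPKM in flox hearts and at 52.3, 29.99 and 38.4 FPKM in CKO hearts, a log2 change of 0.64 ± 0.21 (limma adjusted p = 0.0845). In both genes CKO replicate 1 was at 2.09 times the flox mean. It was above 2-fold in Cct5 (2.22), Cct8 (2.04) and Cct3 (2.03) as well. The deposited table types Cct6a as a processed transcript, while RefSeq on the same assembly types it as protein coding. Cct8 (theta, ENSMUSG00000025613, chromosome 16, 87483326 to 87495873, minus strand) was at 39.2, 40.6 and 42.2 FPKM in flox hearts and at 82.8, 47.4 and 60.1 FPKM in CKO hearts, a log2 change of 0.59 ± 0.20 (limma adjusted p = 0.0918). Cct3 (gamma, ENSMUSG00000001416, chromosome 3, 88297116 to 88321767, plus strand) was at 16.3, 16.6 and 19.7 FPKM in flox hearts and at 35.6, 20.8 and 24.5 FPKM in CKO hearts, a log2 change of 0.57 ± 0.20 (limma adjusted p = 0.101). In Cct3 and Cct6a the nearest hearts of the groups were 1.15 and 1.26 FPKM apart, against 5.15 FPKM in Cct8.

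The hearts stood in nearly the same order for every subunit. CKO replicate 2 was below CKO replicate 3 and CKO replicate 3 below CKO replicate 1 in all 8 genes, with every flox heart lower still, an order that 9.16% of the tested genes shared. Flox replicate 3 was the highest flox heart for all 8. The coefficient of variation between hearts ran from 3.71% to 12.9% in flox and from 21.2% to 28.5% in CKO, while the lowest member count in any heart, 1163, carries a counting error of 2.93%. Summed over the 8 genes, the level was 238, 245 and 269 FPKM in flox hearts and 491, 302 and 360 FPKM in CKO hearts. The summed level was thus 1.53-fold higher in CKO hearts, or 1.32-fold without replicate 1, which alone stood at 1.96-fold the flox mean. Without CKO replicate 1 the log2 changes shrank to between 0.19 in Tcp1 and 0.58 in Cct5. Reads of the 8 genes made up 0.0929 ± 0.0123% of all counts in flox and 0.156 ± 0.0394% in CKO hearts (SD, n = 3).

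How the hearts are scaled to each other bears on these sizes. With TPM the median of all genes moved to 0.13 on the log2 scale and with scaling by total counts to 0.11. The share of called genes that were higher in CKO then went from 49.1% to 69.0% and 66.4%. Relative to those medians the subunits' median was 0.62 and 0.63, near the 0.60 with the deposited scaling. TPM called 6 of the 8 subunits, all except Tcp1 and Cct2, and total counts called Cct4, Cct5 and Cct7. In all 17 fits, alternatives and left-out hearts included, each of the 8 log2 changes was above 0. As the groups did not overlap for any subunit, this direction was fixed in advance wherever the deposited scaling was kept. Only a change of scaling could have reversed it.

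**Figure D2:**
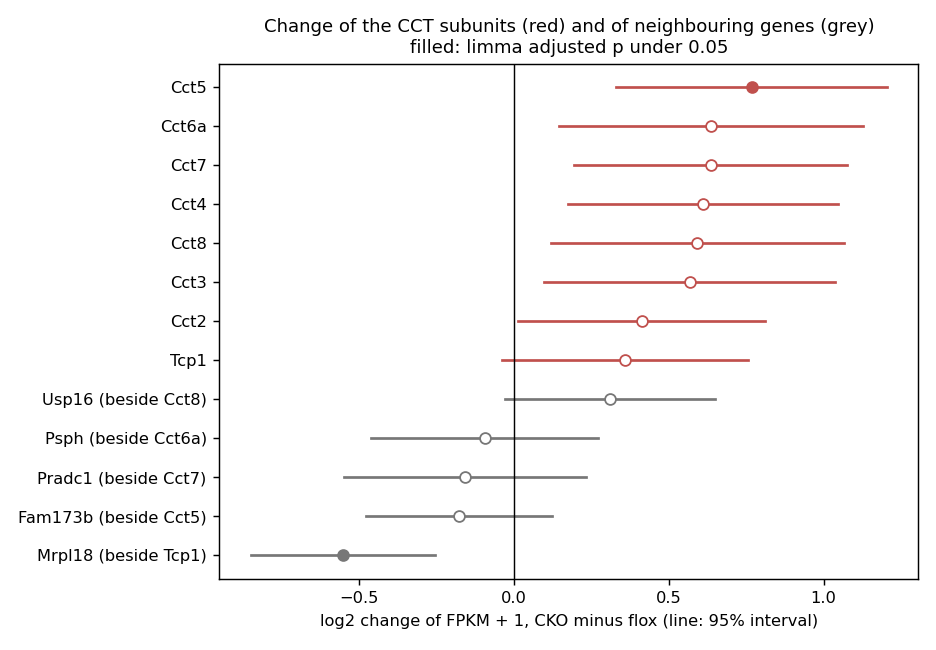
The log2 change of FPKM + 1 between CKO and flox hearts with its 95% interval, for the 8 CCT subunits in red and for the measured genes that overlap them or start beside them in grey. Filled points passed the limma threshold, which are Cct5 at 0.77 and Mrpl18 at −0.55. The intervals of all subunits except Tcp1 lie above 0.

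Because the ring holds its subunits in equal number, their transcript levels per length were compared within each heart. The deposited levels were unequal, with Cct2 or Cct5 highest and Cct3 lowest. The highest subunit exceeded the lowest 2.75 ± 0.138-fold in flox and 2.82 ± 0.118-fold in CKO hearts (SD, n = 3). The standard deviation of log2 FPKM over the 8 subunits was 0.55 ± 0.03 in flox and 0.54 ± 0.02 in CKO hearts, a difference within the spread of the hearts. For comparison, it was 0.81 ± 0.02 and 0.85 ± 0.02 over 14 genes of the 20S proteasome, another complex of fixed composition.

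That inequality depends on the gene length used for FPKM. The deposited length of Cct3, 6370 bases, is 3.22 times that of its principal GENCODE M21 transcript of 1977 bases, whereas the deposited length of Cct8, 3088 bases, is 1.29 times its transcript of 2394 bases. With transcript lengths in place of the deposited ones, a choice made after the data were seen, the standard deviation over subunits was 0.28 ± 0.03 in flox and 0.27 ± 0.02 in CKO hearts. The ratio of highest to lowest subunit became 1.78 ± 0.146 and 1.91 ± 0.0714. Cct6a was then the lowest subunit, at 36.9 ± 4.76 FPKM in flox hearts and 59.3 ± 16.7 FPKM in CKO hearts, and Cct3 stood at 56.4 ± 6.09 and 87.0 ± 24.8 FPKM. In flox hearts Tcp1 (64.4 ± 2.78 FPKM) and Cct5 (64.4 ± 3.58 FPKM) were level, while in CKO hearts Tcp1 was at 84.4 ± 18.7 FPKM and Cct5 at 113 ± 27.9 FPKM. Ratios of FPKM between hearts do not depend on the length, which is the same in every heart, but the log2 changes of FPKM + 1 do slightly. With 0.1 added in place of 1, the change of Cct3 was 0.59 and not 0.57.

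Taking each subunit relative to the mean of the 8 in its own heart removes a log2 shift that all 8 share equally. On this log2 scale Cct5 was at 0.55, 0.58 and 0.52 in flox hearts and at 0.73, 0.74 and 0.76 in CKO hearts. Its share of the summed FPKM went from 17.2% to 19.7%, and the groups did not overlap (difference 0.19, exact permutation p = 0.1, the smallest possible). Tcp1 moved the other way, from 0.14, 0.09 and 0.05 in flox hearts to −0.18, −0.08 and −0.14 in CKO hearts (difference −0.22, exact permutation p = 0.1). The relative level of Tcp1 fell from heart to heart in the order in which the ring mean rose, with CKO replicate 1 lowest, so it still followed the level of the heart. The share of Tcp1 in the sum was 12.5% in flox and 10.7% in CKO hearts. Cct2 likewise had a lower relative level in CKO hearts, at 0.67, 0.75 and 0.70 against 0.48, 0.65 and 0.48 (difference −0.17, exact permutation p = 0.1). Cct7 was slightly higher relative to the ring (difference 0.07, exact permutation p = 0.1). For Cct3, Cct4, Cct6a and Cct8 the groups overlapped, with differences from 0.00 to 0.07 and exact permutation p from 0.2 to 0.9. The relative levels of a heart cancel out by construction, so a higher subunit makes others lower and the p-values are not separate results. The exact permutation test of 3 hearts against 3 cannot go below 0.1, and no other test was run on these relative levels.

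**Figure D3:**
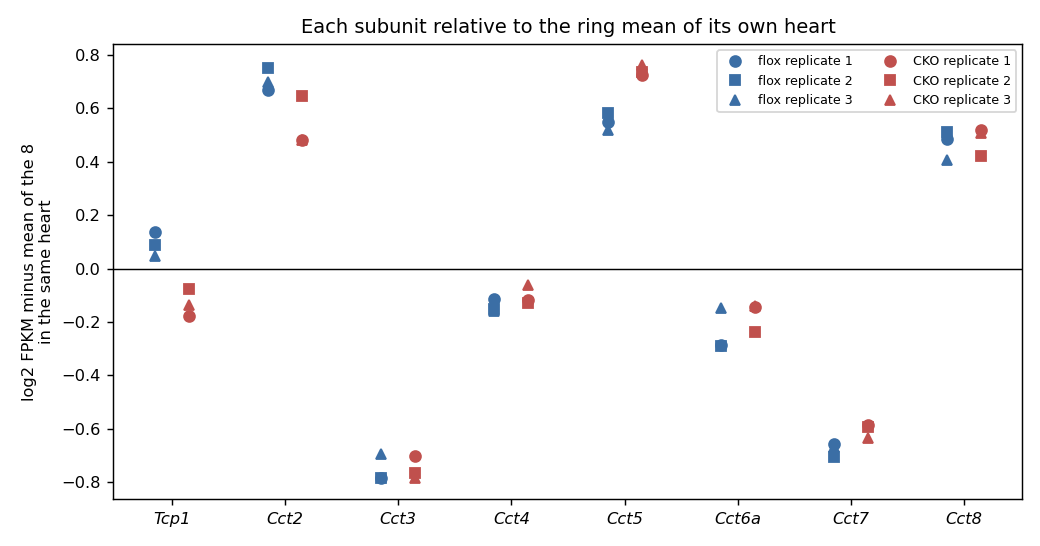
Each subunit's log2 FPKM minus the mean of the 8 subunits in the same heart, for 3 flox (blue) and 3 CKO hearts (red). Tcp1 and Cct2 are lower and Cct5 is higher relative to the ring in every CKO heart than in every flox heart, while Cct3, Cct4, Cct6a and Cct8 overlap.

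The 8 genes lie on 8 different chromosomes, so their starts were compared for shared short motifs. RefSeq promoter windows (GRCm38.p6, 250 bases before to 50 after the start) were at hand for 7 members, all except Cct4, taking the RefSeq start nearest to the start in the deposited table. Annotated exons cover all 250 bases before the start in Tcp1 and Cct6a, and 245 of them in Cct5. The RefSeq starts used for Tcp1, Cct6a, Cct3 and Cct8 lie inside the deposited gene, those of Cct3 and Cct8 close to its start. Sequences before the start with no annotated exon are shown for the 4 members where such a stretch is long, 5′ to 3′ on the gene's strand. Capitals mark the letters CCAAT or ATTGG (the CCAAT box of NF-Y), GGGCGG or CCGCCC (the GC box of SP factors), CCGGAAG or CTTCCGG (the ETS core) and TCTCGCGA.
Cct2, chr10:117063853-117064102, minus strand: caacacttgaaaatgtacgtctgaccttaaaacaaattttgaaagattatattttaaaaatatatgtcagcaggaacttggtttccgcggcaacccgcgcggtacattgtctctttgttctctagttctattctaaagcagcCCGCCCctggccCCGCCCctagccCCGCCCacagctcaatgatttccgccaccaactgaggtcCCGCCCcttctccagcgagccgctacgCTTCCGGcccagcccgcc
Cct3, chr3:88297000-88297115, plus strand: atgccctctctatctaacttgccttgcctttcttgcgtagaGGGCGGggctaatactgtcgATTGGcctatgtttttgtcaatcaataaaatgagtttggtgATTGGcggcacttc
Cct7, chr6:85451284-85451504, plus strand: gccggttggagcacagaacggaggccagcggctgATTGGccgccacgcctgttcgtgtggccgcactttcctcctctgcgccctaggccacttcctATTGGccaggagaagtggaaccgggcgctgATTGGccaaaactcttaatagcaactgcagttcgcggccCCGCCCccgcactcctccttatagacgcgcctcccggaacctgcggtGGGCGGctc
Cct8, chr16:87495874-87495998, minus strand: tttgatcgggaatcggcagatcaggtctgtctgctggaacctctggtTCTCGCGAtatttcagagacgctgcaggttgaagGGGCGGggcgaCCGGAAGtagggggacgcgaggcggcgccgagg
The GC box was in all 7 windows, against 63.4% of windows of tested genes and 35.7% of all windows, and the median GC content was 59.3% in members and 61% in tested genes. The CCAAT box was in 4 of 7 (Tcp1, Cct3, Cct6a and Cct7, with 3 copies in Cct7) against 37.4% of windows of tested genes. The ETS core was in 3 of 7 (Tcp1, Cct2 and Cct8) against 17.4%, and TCTCGCGA in Cct8 alone against 2.2%. The CRE core TGACGT or ACGTCA was in Cct6a alone against 11.5%. The letters TTCNNGAA, an inverted pair of units that heat shock factors bind, were in Cct5 and Cct6a, 2 of 7 windows against 6.93% of windows of tested genes. Counted from the RefSeq start, the site of Cct5 begins at position −34, within annotated exon, and that of Cct6a at position 25, after the start. These 2 sites are shown with the motif in capitals.
Cct5, chr15:31601865-31601888, minus strand: gcggccgaTTCCAGAAgctactct
Cct6a, chr5:129787372-129787395, plus strand: taagacttTTCGAGAAgaccccgc
Neither the other phase of this motif, GAANNTTC, nor the E-box CACGTG of MYC was in any of the 7 windows, against 5.62% and 9.98% of windows of tested genes. Both strands were searched throughout. Members with a motif did not share one size of change. Cct5 and Cct6a, with the heat shock letters, were at 0.77 and 0.64, and Tcp1, Cct2 and Cct8, with the ETS core, at 0.36, 0.41 and 0.59. Hsf1, the main factor of the heat shock response, was at 4.97, 5.16 and 5.18 FPKM in flox hearts and 5.84, 5.09 and 5.87 FPKM in CKO hearts, and the groups overlapped (log2 change 0.11 ± 0.11, limma adjusted p = 0.509).

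Genes that start beside a member on the other strand were compared with it, since such a pair can share its promoter region. Mrpl18, a mitochondrial ribosomal protein gene, starts 644 bases from the start of Tcp1, runs the other way and shares 645 bases with it. It was at 41.3, 39.6 and 44.9 FPKM in flox hearts and at 31.4, 27.4 and 26.3 FPKM in CKO hearts, lower in each CKO heart than in any flox heart, while Tcp1 was higher in each. Mrpl18 fell by 0.55 ± 0.13 on the log2 scale (limma adjusted p = 0.0308). The log2 ratio of Tcp1 to Mrpl18, on FPKM + 1, was −0.41, −0.37 and −0.44 in flox hearts and 0.69, 0.28 and 0.53 in CKO hearts. With the deposited lengths the order of the pair was thus opposite in the groups. Which gene of the pair is higher depends on those lengths, and no transcript length was taken for Mrpl18. Each gene alone already separated the groups in opposite directions, so the exact permutation p of 0.1, the smallest possible, was fixed in advance. Where reads were counted without strand, those of the shared stretch cannot be told apart, and the sources used here do not give the strand setting. The call of Mrpl18 was lost with TPM (log2 change −0.42, adjusted p = 0.0716), with scaling by total counts (−0.42, adjusted p = 0.0884) and without flox replicates 1, 2 or 3 or CKO replicates 2 or 3 (highest adjusted p 0.123), while its direction stayed.

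The other measured neighbours were not called. Fam173b, which starts 48 bases from Cct5, had means of 3.85 ± 0.312 FPKM in flox against 3.30 ± 0.498 FPKM in CKO hearts (log2 change −0.18 ± 0.13, limma adjusted p = 0.376). Psph, an enzyme of serine synthesis, overlaps Cct6a by 452 bases, and Pradc1 overlaps Cct7 by 457 bases. Their log2 changes were −0.09 ± 0.16 and −0.16 ± 0.17. The limit of unknown strand given for Tcp1 and Mrpl18 holds for these overlaps as well. On the scale of log2(FPKM + 1), Cct5 over Fam173b, Cct6a over Psph and Cct7 over Pradc1 were higher in every CKO heart than in every flox heart. The differences were 0.94, 0.73 and 0.79 (exact permutation p = 0.1 each), and the members alone already separated the groups. Cct6a over Psph was at 3.63 in flox replicate 3 and at 3.65 in CKO replicate 2. Psph was low there, at 1.40 and 1.46 FPKM, and without the added 1 these hearts change order, so that the groups overlap. Usp16, a ubiquitin protease gene whose end overlaps the end of Cct8 by 192 bases, had a log2 change of 0.31 ± 0.15 (limma adjusted p = 0.189). Cct8 over Usp16 was higher in CKO hearts by only 0.28 on the same scale (exact permutation p = 0.1), and Cct8 alone already separated the groups. Tsacc beside Cct3, B130034C11Rik beside Cct8, Acat3, and the snoRNA genes Snora20, Gm26130, Gm23245 and Snora15 that lie within Tcp1 or Cct6a were under the filter of 1 FPKM.

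Close relatives of the subunits had few reads or none. The testis paralog Cct6b had 1 or 2 reads in each heart, Cct8l1 at most 3, and the pseudogenes Cct3-ps1 and Tcp1-ps1 had 0 in every heart. Tcp11, which shares only part of its name, was under the filter in every heart.

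The genes most like the ring over the 6 hearts were found by correlation, so that their order of hearts is set by the choice. Pearson's r between log2(FPKM + 1) of a gene and the mean of the 8 subunits was 0.986 to 0.998 for the subunits, each of which is part of that mean, and 95 of the tested genes (0.762%), the 8 subunits among them, reached the lowest of these. The 6 protein-coding genes with the highest r, from 0.998 for Rnf115 to 0.9996 for Drg1, were Drg1, a translation-associated GTPase, Dars and Hars, the aminoacyl-tRNA synthetases for aspartate and histidine, Nme1, a nucleoside diphosphate kinase, Rragc, a GTPase of amino acid signalling to mTOR, and Rnf115, a ubiquitin ligase. Drg1 stood at 12.2, 12.7 and 14.1 FPKM in flox hearts and at 25.0, 15.5 and 18.6 FPKM in CKO hearts. None of these 6 passed the limma threshold, with adjusted p from 0.0743 for Nme1 to 0.179 for Rragc. The r is a description over 6 hearts of 2 groups that share libraries and scaling.

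Cofactors of CCT were then described by list. Prefoldin is a 6-subunit complex that carries unfolded actin and tubulin to CCT. Of all tested genes, 6.93% were called higher and 7.19% lower. Of the 6 prefoldin genes, 1 rose, 0 fell and 5 were not called, at a median log2 change of 0.31. The gene that rose was Pfdn1, at 36.6, 38.8 and 42.6 FPKM in flox hearts and 102, 59.6 and 63.2 FPKM in CKO hearts (log2 change 0.87 ± 0.21, limma adjusted p = 0.0366). Its hearts stood in the same order as those of the ring, and its call was lost in the same 4 fits without 1 heart as that of Cct5 (highest adjusted p 0.136). Pfdn2 and Vbp1, which are subunits of the same complex, had log2 changes of −0.04 and 0.07. The log2 changes thus ran from −0.04 to 0.87 within prefoldin and from 0.36 to 0.77 within CCT.

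None of 8 prefoldin-like and R2TP genes (median 0.25), none of 3 measured phosducin-like and thioredoxin-like cofactors of CCT (0.26) and none of 7 tubulin cofactors (0.21) was called by limma. The most highly expressed of each were Pdrg1 (log2 change 0.29 ± 0.15, limma adjusted p = 0.230), Pdcl3 (0.26 ± 0.17, adjusted p = 0.331) and Tbca, which receives beta-tubulin after folding (0.43 ± 0.27, adjusted p = 0.312). Of all tested genes, 14.1% were called in either direction, and whether the ring differs from these lists was not tested.

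Tubulins are, with actins, the best known proteins folded by CCT. Of 15 measured tubulin genes, 4 rose, 1 fell and 10 were not called, at a median log2 change of 0.74, where 6.93% of all tested genes were called higher and 7.19% lower. Whether tubulins differ from the other lists was not tested. Tuba1a was at 54.7, 62.4 and 66.4 FPKM in flox hearts and at 232, 110 and 124 FPKM in CKO hearts (log2 change 1.25 ± 0.28, limma adjusted p = 0.0272). Tubb2b went from 3.44 ± 1.09 to 17.7 ± 10.6 FPKM (1.94 ± 0.40, limma adjusted p = 0.0224) and Tubb3 from 0.391 ± 0.203 to 3.55 ± 2.99 FPKM (1.53 ± 0.40, limma adjusted p = 0.0448). In each of these 3 genes CKO replicate 1 was highest and CKO replicate 2 lowest among CKO hearts, as in the ring. Tuba1b also rose and Tuba4a fell, both named after their values were seen, with Tuba4a going from 96.4 ± 9.63 FPKM in flox hearts to 56.0 ± 8.96 FPKM in CKO hearts (−0.78 on the log2 scale). Tubulin genes are close in sequence, so their reads are uncertain. The calls of Tubb2b and Tuba1a were lost without flox replicate 1, flox replicate 2 or CKO replicate 3, and that of Tubb3 also without flox replicate 3 (highest adjusted p 0.143).

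Among 6 actin genes, Actb, the cytoplasmic beta-actin, had a mean of 232 ± 33.4 FPKM in flox hearts and rose to 360 ± 48.9 FPKM in CKO hearts (0.63 ± 0.17 on the log2 scale, limma adjusted p = 0.0496), and the call was lost in all 6 fits without 1 heart (adjusted p from 0.0527 to 0.179) and with robust moderation. The cardiac actin Actc1, by far the most abundant, was not called, with 7722 ± 763 FPKM in flox against 5804 ± 853 FPKM in CKO hearts (−0.42, limma adjusted p = 0.158). Of 18 genes of WD40 proteins and other clients, 1 rose and 1 fell, at a median of 0.05. Against 6.93% of all tested genes called higher and 7.19% lower, these calls do not set the list apart. Rack1, a WD40 protein of the small ribosomal subunit, rose by 0.89 ± 0.19 (limma adjusted p = 0.0238) and Gnb5, a G protein beta subunit, fell by 0.51 ± 0.10 on the log2 scale (limma adjusted p = 0.0208). Without flox replicate 1 or 2 both calls were lost (highest adjusted p 0.105), and that of Gnb5 also without CKO replicate 3, with TPM and with total counts.

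Other folding machines had smaller median changes than the 0.60 of the ring. The 2 genes of the mitochondrial chaperonin, Hspd1 at 133 ± 17.7 against 113 ± 4.87 FPKM and Hspe1 at 35.2 ± 6.39 against 47.4 ± 13.2 FPKM, were not called (log2 changes −0.22 and 0.40), and neither were 2 measured chaperonin-like BBS genes (Mkks at 0.00). Where 6.93% of all tested genes were called higher and 7.19% lower, the calls of the HSP70 and HSP90 machinery do not set it apart. Of its 23 genes, 1 rose and 1 fell, at a median of 0.16. The gene that rose was Hsp90aa1, the inducible cytosolic HSP90 (1.35 ± 0.26, limma adjusted p = 0.0189), and the gene that fell was its co-chaperone Fkbp4 (−0.68 ± 0.12, limma adjusted p = 0.0149). Both calls were lost without flox replicate 1, flox replicate 2 or CKO replicate 3 (highest adjusted p 0.0875). The 14 genes of the 20S proteasome had 0 called by limma, a range from −0.02 to 0.36 and a median of 0.15, so the lowest CCT subunit, at 0.36, stood beside the highest proteasome gene. The proteasome's summed level was 514 to 542 FPKM in flox hearts and 805, 532 and 518 FPKM in CKO replicates 1, 2 and 3. It was above the flox range in CKO replicate 1 alone. The summed CCT level was above the flox range in all 3 CKO hearts, and so were those of prefoldin (120 to 134 FPKM in flox, 151 to 231 FPKM in CKO hearts) and of the prefoldin-like and R2TP genes (77.5 to 88.4 FPKM in flox, 90.6 to 123 FPKM in CKO hearts). The same held, narrowly, for tubulins (502 to 703 FPKM in flox, 705 to 1290 FPKM in CKO hearts). It also held narrowly for WD40 and other clients (253 to 302 FPKM in flox, 305 to 389 FPKM in CKO hearts).

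**Figure D4:**
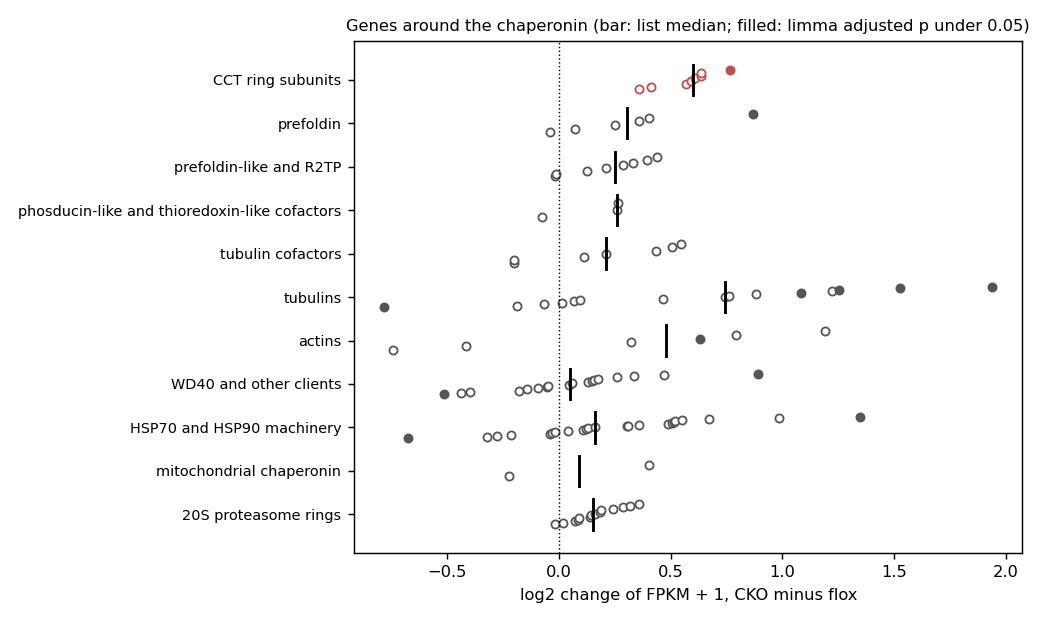
The log2 change of FPKM + 1 between CKO and flox hearts for each measured gene of the CCT ring (red) and of lists of cofactors, clients and other folding or degradation machines (grey), with a bar at each list's median and filled points for limma calls. The 8 subunits lie between 0.36 and 0.77 with a median of 0.60, while tubulins spread from −0.78 to 1.94 and the proteasome genes from −0.02 to 0.36.

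Marker genes of cell types were compared as well, where 7.19% of all tested genes were called lower and 6.93% higher. Of 10 cardiomyocyte markers, 5 fell and 0 rose, among them Atp2a2 (−1.34), Tnnt2 (−1.13) and Pln (−1.09), and the list summed to between 19628 and 25439 FPKM in flox and between 14522 and 15287 FPKM in CKO hearts. Of 6 fibroblast markers, the collagen genes Col1a2 (1.01) and Col1a1 (0.87) rose. Col3a1 (0.59), Dcn (0.34), Lum (0.24) and Pdgfra (−0.12) were not called. The sums of the fibroblast list were 600 to 782 FPKM in flox and 927 to 1144 FPKM in CKO hearts, with Col3a1 and Col1a1 the highest genes. Of 5 measured macrophage markers, Cd68 rose (0.65), with sums of 43.9 to 48.3 FPKM in flox and 46.9 to 78.3 FPKM in CKO hearts. None of 6 endothelial (Cdh5 at −0.47), 5 measured smooth muscle and pericyte (Rgs5 at −0.16) or 5 erythroid markers (Hbb-bs at −0.24) was called by limma, and no marker of these lists was at 0 in every heart. Each call of a named marker was lost without flox replicate 1 (highest adjusted p 0.133), and all except those of Col1a2 and Col1a1 also without flox replicate 2. Without CKO replicate 3 those of Tnnt2, Pln, Col1a1 and Cd68 were lost, and without CKO replicate 1 those of Pln and Cd68. Without a filter on low values all 6 of these calls were lost, and that of Cd68 also with voom (adjusted p = 0.0604). The part of these cells in the level of the CCT subunits was not tested.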

How the data were processed

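Messenger RNA of 6 hearts was sequenced, 3 per group, labelled as independent biological replicates. Alignment used HISAT2 2.0.5 on GRCm38 and counting used featureCounts 1.5.0-p3, per the labels; CASAVA and DESeq2 1.20.0 are named as well, per the submitters' processing notes. The authors deposited FPKM per heart with gene lengths in bases. FPKM multiplied by length was a whole multiple of one step per library for 100% of values above 0, within 0.01, which gave the read counts. The implied library sizes equalled median-ratio size factors (0.893 to 1.07) times the mean total, so the FPKM are already scaled between hearts.

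Genes with a mean of at least 1 FPKM entered a linear model of log2(FPKM + 1) on genotype (limma 3.58.1 with a mean-variance trend, R 4.3.3). P-values were two-sided and adjusted by Benjamini-Hochberg over all genes tested. Fold changes on this scale understate those of low genes. The fit was tested on simulated data. The members and gene lists were chosen with earlier results of these data known. Named were the members, Nat10, up to 3 called genes of each list or else its highest one, genes overlapping a member or starting within 1 kb on the other strand, and the 6 genes most like the ring. Promoter sequences are from RefSeq, and transcript lengths from GENCODE M21 (Cct6a, with no coding transcript there, took its longest processed one).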

Additional observations from a re-analysis of the deposited data

How the results depend on the processing

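The mean of the 8 log2 changes was 0.57, and between 0.38 (without CKO replicate 1) and 0.73 under other pseudocounts, scalings and left-out hearts. The number of subunits called moved from 1 to 0 without a filter, 2 with a minimum of 5 FPKM, 2 with voom on recovered counts, 3 with total counts, 4 with quantile normalization and 6 with TPM, and ran from 0 to 5 without single hearts. Genes called went from 1761 to 40 without a filter, where 54532 genes were tested, and ran from 364 to 1794 without single hearts. With the replicate number as a block, 541 genes and 0 subunits were called. All 17 calls of genes named by the rule were lost without a filter and 16 with the block. Same-numbered hearts correlated at −0.283 to −0.137 in their deviations, and 0 of 6 hearts correlated best with its own number. A pairing by number was thus not seen, but 3 hearts per group cannot settle whether there is one. The standard deviation over subunits moved to 0.28 in flox and 0.27 in CKO hearts with transcript lengths, an alternative added after seeing the data. Nat10 changed sign with TPM (0.0645) and total counts (0.0538) and ranged from −0.101 to 0.0129 without single hearts, and Mkks from −0.13 to 0.11. Causes of the other shifts were not tested. The number of hearts, 3 per group, limits every test.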
